A study of Mus musculus with 2 samples.

Results

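The transcripts of 8 genes that mark luminal progenitor cells of the mammary gland or regulate its epithelium were followed in lineage-depleted mammary epithelial cells (MECs) on lactation day 3. The genes were chosen by symbol from the 25810 rows of the deposited tables that carry a gene symbol. They are the progenitor markers *Kit*, *Aldh1a3* and *Itgb3*, the ETS factors *Ehf* and *Elf3*, the SOX factors *Sox9* and *Sox10*, and the grainyhead factor *Grhl2*. Each symbol matched 1 row, and all 8 genes had at least 1 read per 1000000 mapped reads (1 RPM) in at least 1 library, as did 14026 genes in all. The WT library came from wild type mice and the KO library from *Igfbp7*-/- mice, which lack the first coding exon of *Igfbp7* in every cell of the body, so that the loss is not restricted to the epithelium. Both came from inguinal glands of nursing females, and both were depleted of cells carrying CD45, CD31 or Ter119, markers of leukocytes, endothelium and erythroid cells. The methods describe the mice as CD1, but C57BL/6 stands in the deposited labels, which also list CD35 where the methods list CD31. The age and number of the animals behind a library are not given in the sources used here.

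Each genotype had 1 library, so variation between animals was not measured and no test of the genotypes was possible. The libraries held 34327854 (WT) and 35016847 (KO) mapped reads, and 3 reads, taken as the limit of detection, equal 0.0874 and 0.0857 RPM. Reads on the targeted gene, *Igfbp7*, numbered 5224 in WT against 37 in KO. A gene was called higher or lower when the ratio of KO to WT, taken after adding 0.1 RPM to both values, passed 1.5 times. Intervals are 95% intervals on read pairs, without the added 0.1 RPM. They cover counting error only, since each genotype had 1 library. PCR copies of one molecule, where counted as separate reads, make these intervals too narrow.

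The luminal layer of the mammary epithelium lines the ducts and alveoli and holds milk-secreting cells, hormone-sensing cells and progenitors, whereas the basal layer is contractile and pushes the milk out. Luminal progenitors are recognised in mice by surface c-Kit and β3 integrin (CD61) and by aldehyde dehydrogenase activity, and they give rise to the alveolar cells that expand in pregnancy. The transcription factors studied here act elsewhere in the same lineages. EHF and ELF3 are epithelium-specific ETS proteins related to ELF5, the factor that drives alveolar differentiation. SOX9 and SOX10 are associated with progenitor states, and GRHL2 maintains epithelial cell junctions.

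Of the 8 genes, 3 stood past 1.5 times on the higher side in KO, namely *Aldh1a3*, *Ehf* and *Elf3*, and 1, *Itgb3*, on the lower side. Relative to the luminal keratins of each library, described further on, 0 of the 8 genes were called higher and 6 lower. Of all 14026 genes, 0.91% were called higher and 94.1% lower relative to these keratins. On that scale *Aldh1a3* was within 1.5 times (0.47), and *Ehf* (-0.39), *Elf3* (-0.95) and *Kit* (-1.39) lay below 0. With the deposited RPM, 21.4% of all 14026 genes were called higher and 23.0% lower by the same rule. The count of called genes is thus read against a background in which many genes differed between the libraries. The 4 other genes, *Kit*, *Sox9*, *Sox10* and *Grhl2*, stayed within 1.5 times on the RPM scale. The median log2 ratio of the 8 genes was 0.31, beside 0.035 for all genes, whose quartiles were -0.52 and 0.51. When the libraries were scaled to the reads on listed genes, the median of all genes shifted by 0.18 and the background became 30.2% higher and 18.4% lower. *Kit* then also passed 1.5 times, with a log2 ratio of 0.69.

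**Figure D1:**
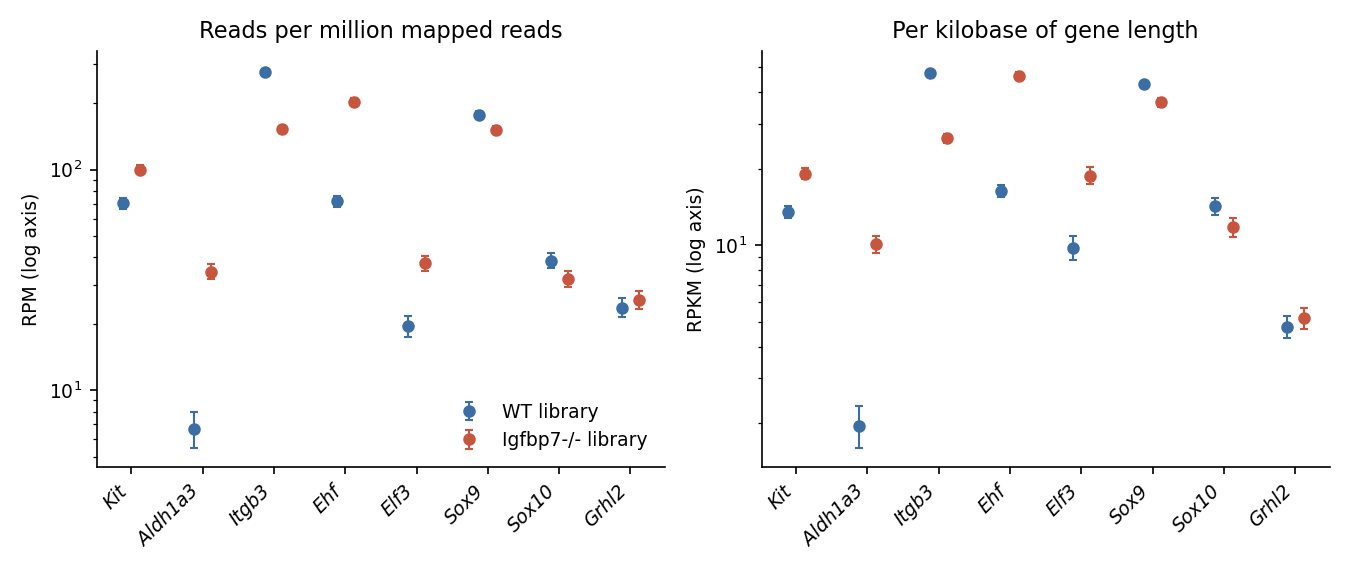
Level of the 8 genes in the WT (blue) and the *Igfbp7*-/- (KO, red) library, in RPM (left) and RPKM (right) on log axes, 1 library per genotype. Bars are exact Poisson intervals on read pairs and cover counting error only. *Aldh1a3*, *Ehf*, *Elf3* and *Kit* are higher in KO on these scales, *Itgb3* is lower, and the bars of *Grhl2* overlap. Relative to luminal keratins *Ehf*, *Elf3* and *Kit* are lower, as is the median of all genes (log2 ratio -1.83).

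*Aldh1a3* encodes a retinaldehyde dehydrogenase that makes retinoic acid, and it contributes to the enzyme activity by which progenitors are sorted. The gene occupies chr7:73535778-73572403, minus strand, in the NCBIM37 (mm9) build, which is used for all gene positions here, and its longest coding transcript has 13 exons. The WT library held 229 reads of it, or 6.67 RPM, and the KO library 1208 reads, or 34.5 RPM. The KO level was thus 5.11 times the WT level, a log2 ratio of 2.35 (2.09 to 2.68), higher than that of 99.0% of all genes tested. This was the largest ratio among the 8 genes, from the gene with the fewest reads in WT.

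*Kit* encodes the receptor for stem cell factor, a tyrosine kinase at the cell surface. It occupies chr5:75970941-76052747, plus strand, with 21 exons. Its level was 70.4 RPM (2418 reads) in WT and 99.6 RPM (3488 reads) in KO, a ratio of 1.41. The log2 ratio was 0.50 (0.39 to 0.61), so the interval lies above 0 and spans the threshold of 1.5 times.

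*Itgb3* encodes the β3 integrin chain, which pairs with αv on many cells and with αIIb on platelets. It occupies chr11:104469370-104531790, plus strand, with 15 exons. Its WT level of 275.6 RPM (9460 reads) was the highest of the 8 genes on the RPM scale, and its KO level was 152.3 RPM (5334 reads). The KO level was 1.81 times lower, a log2 ratio of -0.85 (-0.92 to -0.79). On the RPM scale *Itgb3* thus lay on the other side of 0 from *Aldh1a3* and *Kit*. Relative to the luminal keratins *Itgb3* (-2.75) and *Kit* (-1.39) were both below 0, as was the median of all genes (-1.83).

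*Ehf*, at chr2:103103590-103143435 on the minus strand, was counted 2461 times in WT (71.7 RPM) and 7123 times in KO (203.4 RPM). Its ratio of 2.83 gave a log2 ratio of 1.503 (1.41 to 1.60). *Elf3*, at chr1:137150151-137155049 on the minus strand, was counted 670 times in WT (19.5 RPM) and 1315 times in KO (37.6 RPM). Its ratio was 1.92 and its log2 ratio 0.94 (0.75 to 1.14). The intervals of these related ETS genes do not overlap, so *Ehf* differed more between the libraries than *Elf3* beyond counting error. An annotated noncoding gene, Gm16606, overlaps *Elf3* on the opposite strand. The library preparation was designed to keep the strand, but the strand setting of the counting is not given in the sources used here. Whether reads of the pair were told apart is thus not known.

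*Sox9*, at chr11:112643538-112649074 on the plus strand, was at 177.5 RPM (6092 reads) in WT and 151.0 RPM (5286 reads) in KO. Its log2 ratio was -0.23 (-0.31 to -0.16). *Sox10*, at chr15:78985343-78994920 on the minus strand, was at 38.7 RPM (1328 reads) in WT and 31.9 RPM (1118 reads) in KO, a log2 ratio of -0.28 (-0.44 to -0.11). On the RPM scale both SOX genes were slightly lower in KO, by more than counting error and by less than 1.5 times. Scaled to the reads on listed genes, their log2 ratios were -0.045 (*Sox9*) and -0.089 (*Sox10*), so this difference depends on the scaling. Per length, *Sox9* was 3.00 times as abundant as *Sox10* in WT and 3.09 times in KO. The ratio of these ratios was 1.03 (0.91 to 1.17, normal approximation on read pairs), so no shift between the 2 SOX genes was detectable at this depth.

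*Grhl2*, at chr15:37162791-37293324 on the plus strand, was at 23.7 RPM (812 reads) in WT and 25.6 RPM (898 reads) in KO. Its log2 ratio was 0.12 (-0.08 to 0.31), and on the RPM scale it is the only 1 of the 8 genes whose interval includes 0. Scaled to the reads on listed genes, its log2 ratio was 0.30. The annotation places 3 noncoding genes or pseudogenes across the *Grhl2* locus, 2 of them on the opposite strand. Whether the counting told their reads apart from those of *Grhl2* is not known.

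**Figure D2:**
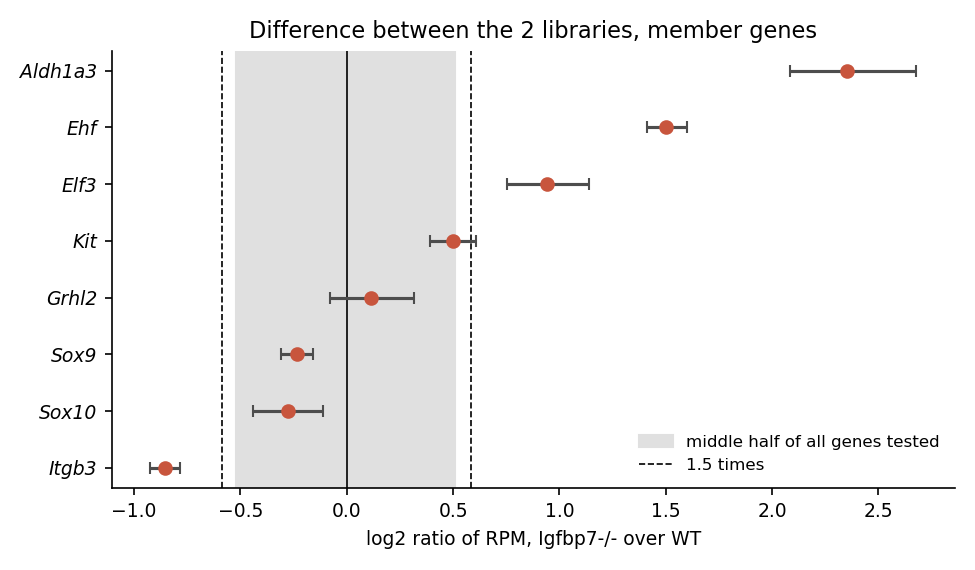
Log2 ratio of KO over WT for the 8 genes (red points, with 0.1 RPM added to both values), with 95% Clopper-Pearson intervals on read pairs that cover counting error only. The grey band spans the quartiles of all 14026 genes (-0.52 to 0.51) and the dashed lines mark 1.5 times. *Aldh1a3*, *Ehf* and *Elf3* lie to the right of the upper line, *Itgb3* to the left of the lower line and the other 4 genes between the lines. Relative to luminal keratins *Ehf* and *Elf3* lie below 0, as does the median of all genes (-1.83).

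RPKM, the RPM per kilobase of gene length, allows the 8 genes to be ranked against each other. In WT the order was *Itgb3* (47.6 RPKM), *Sox9* (42.8), *Ehf* (16.3), *Sox10* (14.3), *Kit* (13.5), *Elf3* (9.76), *Grhl2* (4.78) and *Aldh1a3* (1.95). *Sox10* and *Kit* could not be separated, since their counting intervals, 13.2 to 15.4 and 12.8 to 14.3 RPKM, overlapped. In KO the order was *Ehf* (46.4 RPKM), *Sox9* (36.4), *Itgb3* (26.3), *Kit* (19.1), *Elf3* (18.8), *Sox10* (11.8), *Aldh1a3* (10.1) and *Grhl2* (5.18). The intervals of *Kit* and *Elf3* overlapped there, and so did those of *Sox10* (10.8 to 12.8) and *Aldh1a3* (9.29 to 10.9). *Ehf* thus went from the third place to the first, and *Itgb3* from the first to the third, while *Sox9* held the second place in both libraries. The median over all genes tested was 4.66 RPKM in WT and 4.81 RPKM in KO, and *Aldh1a3* in WT, at 0.42 times the median, was the only value of the 8 genes below it.

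Promoter sequence was held for 2 of the 8 genes, *Elf3* and *Kit*, in the RefSeq table of the GRCm38.p6 build. The 250 bases before the transcription start of each are shown, since no other of the 8 genes had an entry. *Kit* has a second entry, for a start a few bases further along the gene, and the first is shown. Capitals mark the ETS core GGAA on either strand, the shortest element that ETS proteins recognise. The *Elf3* stretch is chr1:135258473-135258722 on the minus strand and the *Kit* stretch chr5:75574737-75574986 on the plus strand, both printed 5′ to 3′ along the gene.
Elf3: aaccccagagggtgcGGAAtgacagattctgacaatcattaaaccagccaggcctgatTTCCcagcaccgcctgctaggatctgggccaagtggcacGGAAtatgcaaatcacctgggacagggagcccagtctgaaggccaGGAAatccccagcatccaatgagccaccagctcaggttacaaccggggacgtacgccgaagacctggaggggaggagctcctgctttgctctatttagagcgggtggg
Kit: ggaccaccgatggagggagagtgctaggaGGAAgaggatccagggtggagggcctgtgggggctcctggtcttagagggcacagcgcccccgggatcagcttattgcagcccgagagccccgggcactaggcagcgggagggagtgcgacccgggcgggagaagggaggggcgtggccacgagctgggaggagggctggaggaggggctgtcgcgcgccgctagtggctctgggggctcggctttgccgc

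The *Elf3* stretch holds 4 ETS cores and the *Kit* stretch holds 1. Of 32851 promoters of the same length in the table, 93.4% hold at least 1 core and 33.4% hold 4 or more, with a median of 3, so these counts are common. Neither stretch holds the SOX letters ACAAAG (found in 16.5% of all promoters), the grainyhead letters AACCNGTT (1.79%) or the STAT letters TTCNNNGAA (7.02%), read on both strands. The *Kit* stretch is richer in G and C (70.8%) than the *Elf3* stretch (57.2%).

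A list of 13 genes gathered here as other luminal progenitor markers held 6 genes called higher in KO and 1 called lower. Among all genes, 21.4% were called higher and 23.0% lower. The list had a median log2 ratio of 0.53. Whether each of its genes is specific to progenitors was not tested. *Mfge8*, which encodes a milk fat globule protein that helps clear dying cells, had 832.4 RPM in WT and 1872 RPM in KO, and *Lbp*, a lipopolysaccharide-binding protein, had 64.3 and 105.0 RPM. *Cd14*, the receptor that works with it, had 469.9 and 677.4 RPM, within 1.5 times. Also within 1.5 times, *Trf* had a log2 ratio of 0.33, while *Elf5* (-0.52), *Lypd3* (-0.24), *Itga2* (-0.21) and *Hey1* (-0.19) lay below 0. Below 10 RPM, *Rspo1*, a Wnt agonist, had 2.04 and 9.37 RPM, and *Prom1* had 3.79 and 8.82 RPM. The gene called lower was *Tspan8*, with 6.38 and 2.11 RPM. *Rspo1*, *Prom1*, *Tspan8*, *Trf*, *Lypd3*, *Itga2* and *Hey1* were named after their values were seen.

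The ETS genes closest to *Ehf* and *Elf3* took another course. *Elf5* had 137.3 RPM in WT and 95.9 RPM in KO, a log2 ratio of -0.52 (-0.61 to -0.43). Inside a library the scaling cancels, and per length *Ehf* stood at 0.26 times *Elf5* in WT and at 1.07 times *Elf5* in KO, a shift of 4.06 times (3.71 to 4.45). *Elf3* went from 0.16 to 0.43 times *Elf5*, a shift of 2.75 times (2.38 to 3.18). *Elf1*, *Elf2* and *Elf4*, which are also expressed outside epithelia, stayed within 1.5 times, with log2 ratios between -0.00036 and 0.39, and *Spdef* was below 1 RPM in both libraries. *Ehf* and *Elf3* were thus the 2 called genes among the 6 measured in this group, beside 21.4% higher and 23.0% lower among all genes.

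Of the 19 SOX genes listed, 9 had at least 1 RPM in one of the libraries. Of these, 1 was called higher and 3 lower, beside 21.4% and 23.0% of all genes. *Sox4* was the most abundant per length and was called higher, with 221.0 RPM in WT and 405.4 RPM in KO, and relative to *Sox9* it shifted from 1.74 to 3.75 times. The 3 SOX genes called lower were *Sox7* (57.9 and 19.2 RPM), *Sox17* (24.0 and 11.5 RPM) and *Sox18* (5.07 and 2.51 RPM), which are known from endothelium. In the grainyhead family, *Grhl1* had 8.56 RPM in WT and 17.6 RPM in KO, a log2 ratio of 1.03 (0.75 to 1.33), and *Ubp1* had 52.6 and 81.9 RPM. *Grhl2* exceeded *Grhl1* 1.95 times per length in WT and 1.03 times in KO, while *Grhl3* was below 1 RPM in both.

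The list of epithelial junction and splicing genes includes *Cdh1* (E-cadherin) and *Cldn4*, known targets of GRHL2 in other epithelia. Of 18 genes, 13 were called higher and none lower, beside 21.4% higher and 23.0% lower among all genes. Their median log2 ratio was 1.12. Relative to the luminal keratins, 2 of the 90 genes of all related lists were called higher and 78 lower, beside 0.91% and 94.1% of all genes. The highest ratios belonged to *Cldn3*, a tight junction claudin (21.6 RPM in WT, 97.4 RPM in KO), *Esrp2*, an epithelial splicing factor (9.85 and 35.3 RPM), and *Spint1*, an inhibitor of membrane proteases (16.6 and 55.8 RPM). *Cldn4* had 293.9 and 718.3 RPM. *Cdh1* and *Epcam* stayed within 1.5 times, with log2 ratios of 0.38 (0.33 to 0.43) and 0.51 (0.46 to 0.56).

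**Figure D3:**
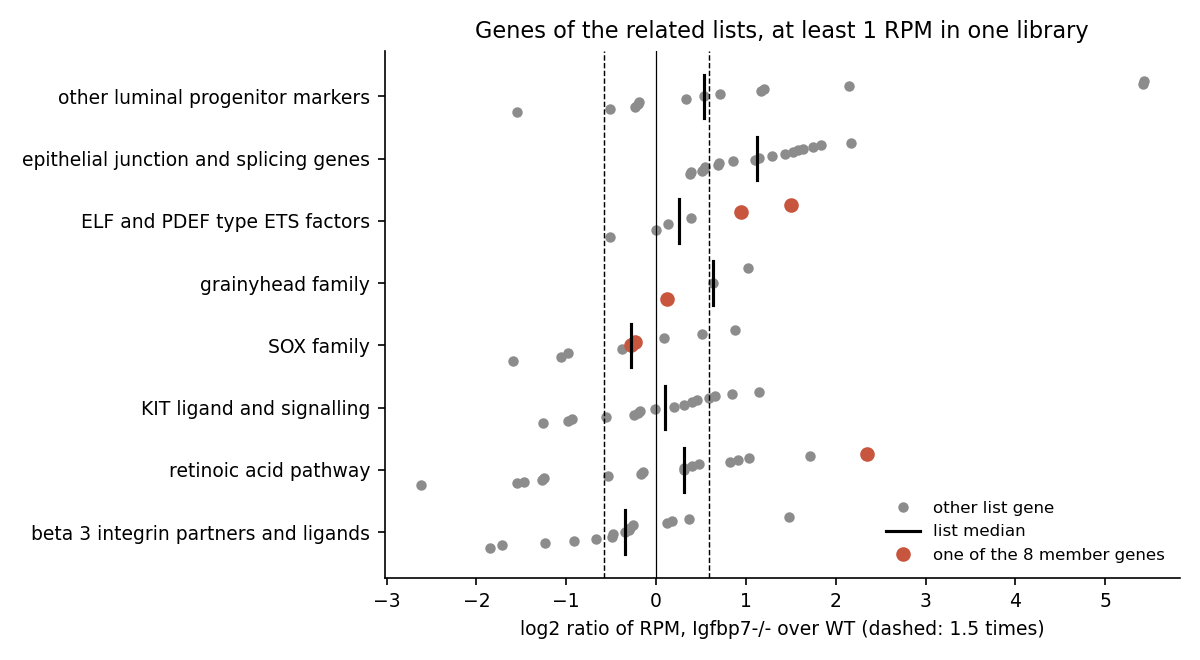
Log2 ratio of KO over WT for each gene with at least 1 RPM in one of the libraries, in 8 related gene lists. Grey points are list genes, red points are those of the 8 genes that belong to a list, black bars are list medians and dashed lines mark 1.5 times. The junction and splicing genes all lie right of 0, with a median of 1.12, while the SOX and β3 integrin lists have medians below 0.

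The partners of the 3 progenitor markers were read in the same way. *Kitl*, the ligand of c-Kit, had 243.2 RPM in WT and 211.9 RPM in KO, a log2 ratio of -0.20 (-0.26 to -0.13), and its level per length relative to *Kit* went from 3.30 to 2.03 times. Of 16 genes for the ligand and for signal transduction, 3 were higher and 3 lower, beside 21.4% and 23.0% of all genes. Those called higher were *Cbl*, a ubiquitin ligase that removes active receptors (20.9 and 46.1 RPM), the kinase *Src* (63.6 and 113.9 RPM) and the adaptor *Gab2* (67.9 and 106.9 RPM). *Lyn*, another Src family kinase, was lower (41.9 and 21.8 RPM), and so were *Ptpn6* and *Socs1*, both below 5 RPM.

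Among 17 measured genes of the retinoic acid pathway, *Aldh1a3* included, 5 were called higher and 5 lower, beside 21.4% and 23.0% of all genes. *Rdh10*, which makes the substrate of the ALDH1A enzymes, had 12.3 RPM in WT and 25.3 RPM in KO. The receptors *Rxra* (40.7 and 76.4 RPM) and *Rarg* (11.9 and 21.1 RPM) were higher, and so was *Cyp26b1*, which breaks retinoic acid down (2.16 and 7.28 RPM). The 5 lower genes all act in retinoid uptake, storage or binding. *Aldh1a1* stayed within 1.5 times (19.4 and 25.6 RPM), so *Aldh1a3* stood at 0.20 times *Aldh1a1* per length in WT and at 0.80 times in KO. *Aldh1a2* had 2 reads in WT and 8 in KO.

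*Itgav*, the αv partner of β3 integrin, moved opposite to *Itgb3*, with 253.1 RPM in WT and 704.8 RPM in KO, a log2 ratio of 1.48 (1.43 to 1.53). Per length, *Itgav* stood at 0.75 times *Itgb3* in WT and at 3.801 times in KO, a shift of 5.04 times (4.75 to 5.34). *Itga2b*, the platelet partner, had 1.72 and 1.20 RPM. Of 15 measured partners, ligands and adaptors, *Itgav* was the 1 called higher and 5 were lower, beside 21.4% and 23.0% of all genes. Among the lower ones were *Vwf* (74.3 and 22.5 RPM) and *Tgfb1* (31.2 and 13.2 RPM). The most abundant ligand, *Spp1* (osteopontin), had 3437 and 2438 RPM and stayed within 1.5 times.

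The cell type markers of the libraries moved as well, and in bulk RNA fewer cells of a type and less RNA per cell cannot be told apart. The luminal keratins *Krt7*, *Krt8*, *Krt18* and *Krt19* summed to 641.0 RPM in WT and 2383 RPM in KO, 3.72 times as much, and all 4 were called higher. The 7 milk protein genes were all called lower and summed to 123702 and 47165 RPM. Of 8 basal and myoepithelial markers, 7 were lower, with sums of 3586 and 1109 RPM. Of 6 hormone-sensing luminal markers, 5 were higher, with sums of 146.1 and 236.5 RPM. Among all genes 21.4% were higher and 23.0% lower, a background that also applies to the cell lists below. The part of these cell types in the values of the 8 genes was not tested.

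**Figure D4:**
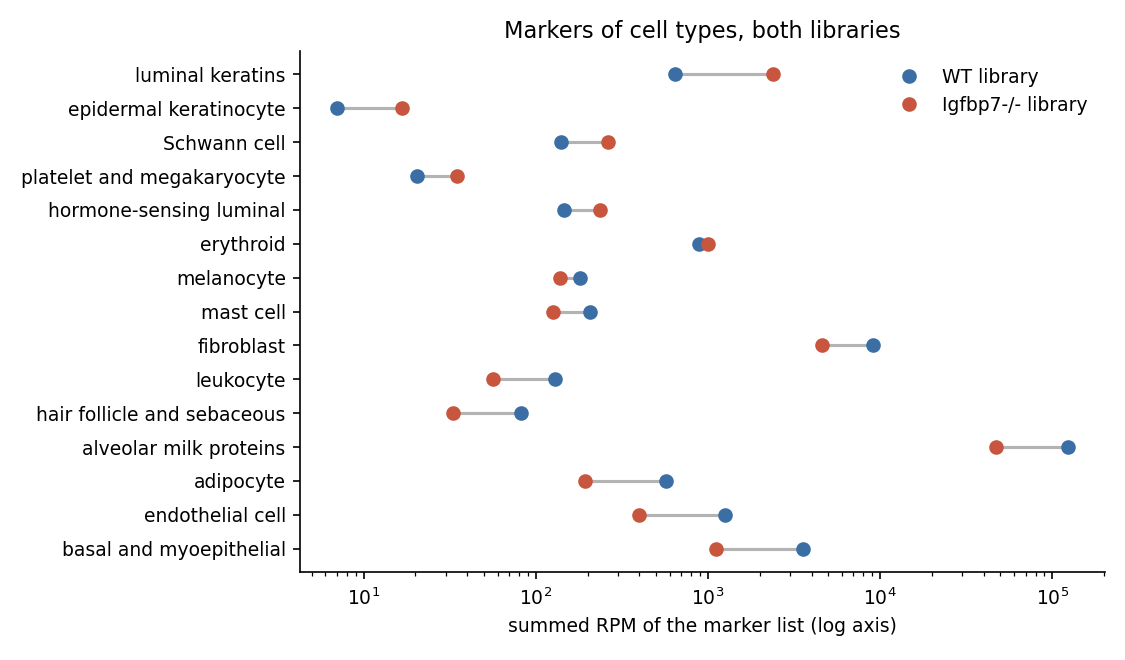
Summed RPM (log axis) of 15 lists of cell type markers in the WT (blue) and KO (red) library, ordered by the ratio of KO to WT. The luminal keratins have the highest ratio, from 641.0 to 2383 RPM, and the basal and myoepithelial list the lowest, from 3586 to 1109 RPM.

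Several of the 8 genes are also expressed in other cells of the gland or its skin. Beside *Itgb3*, 7 of 8 endothelial markers were lower in KO and none was at 0, with sums of 1260 and 398.4 RPM after the depletion by CD31. The platelet list summed to 20.3 and 34.8 RPM, of which *Gp1bb* made up 14.9 and 30.6 RPM, and *Gp6* was at 0. Leukocyte markers (7 of 8 lower) summed to 129.7 and 56.4 RPM and fibroblast markers (4 of 6 lower) to 9060 and 4582 RPM. Erythroid markers, with no gene of 3 called, summed to 888.8 and 998.1 RPM, and adipocyte markers, with 4 of 5 lower, to 572.0 and 193.8 RPM. The part of these cells in the *Itgb3* value was not tested.

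Beside *Kit*, which mast cells carry, the mast cell list summed to 207.7 RPM in WT and 125.7 RPM in KO, mostly from *Il1rl1* (132.9 and 71.5 RPM). Of its 7 measured genes 4 were lower and 2 higher, the proteases *Cma1* (5.48 and 9.17 RPM) and *Tpsb2* (2.74 and 6.37 RPM), and *Ms4a2* was at 0 in both. The part of mast cells in the *Kit* value was not tested. Beside *Sox10*, which Schwann cells and melanocytes carry, the Schwann cell list summed to 140.9 and 264.1 RPM, with 4 of 8 genes higher and 3 lower. *Mbp* (70.9 and 113.6 RPM) and *Erbb3* (20.6 and 105.2 RPM), a receptor that epithelia also express, made up most of the sum. The part of Schwann cells in the *Sox10* value was not tested. The melanocyte genes *Tyr*, *Dct* and *Slc45a2* were at 0 in both libraries, and the list summed to 180.9 and 139.1 RPM, nearly all from *Ednrb*.

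Beside *Ehf*, *Elf3*, *Grhl2* and *Sox9*, which skin also expresses, the epidermal keratinocyte list summed to 6.99 RPM in WT and 16.6 RPM in KO. *Krt2*, *Ivl*, *Flg*, *Dsc1* and *Lce1a1* were at 0 in both libraries, where the 95% interval on read pairs reaches up to 0.215 RPM in WT and 0.211 RPM in KO, and *Krt1* had 18 and 4 reads. Only *Sbsn* reached 10 RPM (2.91 and 14.4 RPM). The hair follicle and sebaceous list summed to 82.5 and 33.0 RPM, of which *Krt15*, also a basal epithelial keratin, gave 48.2 and 3.48 RPM and *Scd3* gave 33.7 and 24.99 RPM.

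Set against the luminal keratins of the same library, the picture changed for most of the 8 genes. *Aldh1a3* was the 1 gene that stayed above 0, with a log2 ratio of 0.47, within 1.5 times. *Ehf* turned from 1.503 to -0.39 and *Elf3* from 0.94 to -0.95, while *Itgb3* reached -2.75 and *Kit* -1.39. The median of all genes lay at -1.83 on this scale, so *Aldh1a3*, *Ehf*, *Elf3* and *Kit*, as well as *Grhl2* at -1.77, were above it and *Sox9* (-2.13), *Sox10* (-2.16) and *Itgb3* below. Set against the basal markers, all 8 genes were higher in KO, from 0.84 for *Itgb3* to 4.06 for *Aldh1a3*. *Sox9* and *Sox10* stood at 1.46 and 1.42 on that scale, as the basal sum differed 3.23 times between the libraries and the SOX genes by 1.18 and 1.21 times.

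**Figure D5:**
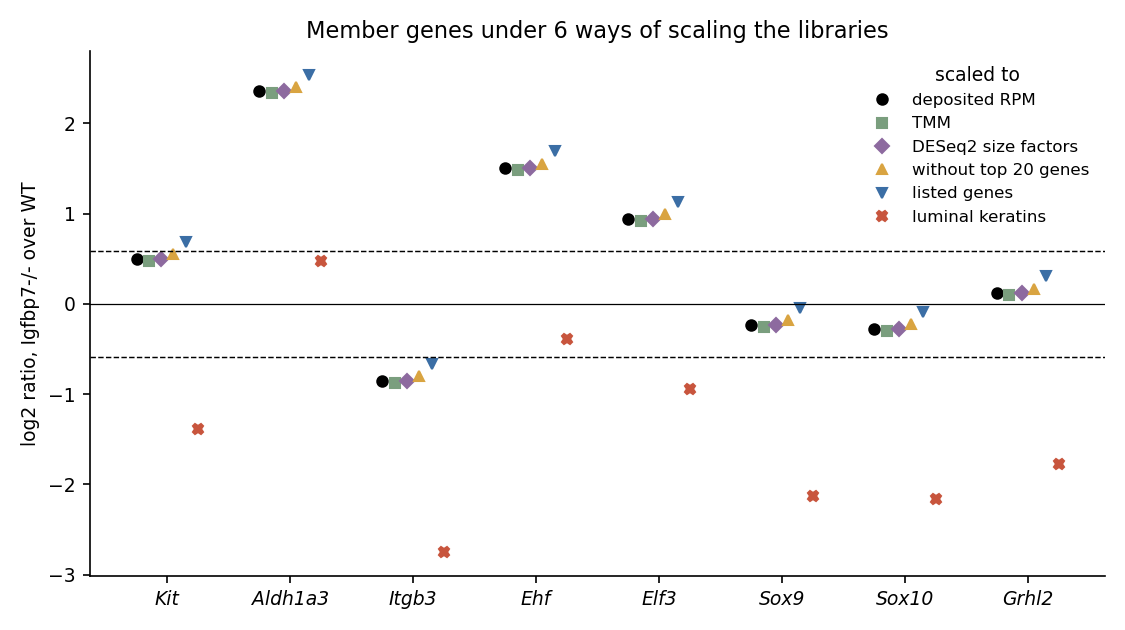
Log2 ratio of KO over WT for the 8 genes when the libraries are scaled in 6 ways, with dashed lines at 1.5 times. The first 5 scalings run from 2.33 to 2.54 for *Aldh1a3*, from -0.25 to -0.045 for *Sox9* and from 0.48 to 0.69 for *Kit*. *Kit* passes 1.5 times only when scaled to listed genes. The ratio to luminal keratins (red crosses) lies below 0 for every gene but *Aldh1a3* at 0.47, and the median of all genes is -1.83 on that scale.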

How the data were processed

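Poly(A) RNA of lineage-depleted MECs was sequenced on a SOLiD sequencer, 1 library for WT and 1 for KO. The authors mapped paired-end reads with a Bowtie-based GeneSifter pipeline, allowed at most 3 mismatches and filtered mitochondrial, ribosomal and small nuclear RNA. Per the labels, Bowtie 0.12.3, SAMtools 0.1.15 and the mm9 build were used, whereas the methods name a human build. The gene annotation and the handling of reads with several matches are not given in the sources used here. The authors deposited a raw read count per gene, the RPM (count per 1000000 mapped reads) and the RPKM (RPM per kilobase of a gene length they chose). Of the deposited counts, 0.049% (WT, 95% Wilson interval 0.0487 to 0.0503%) and 0.067% (KO, 0.0660 to 0.0680%) were on 50 rows without a symbol, which were left out. The rows with a symbol held 82.3% (WT) and 72.3% (KO) of the mapped reads by which RPM divides. A further unnamed column, filled only in such rows, was not used. Blank counts were read as 0.

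With 1 library per genotype a count model has no residual degrees of freedom, so no test was run. Ratios of KO to WT used RPM as deposited, a pseudocount of 0.1 RPM and only genes with at least 1 RPM in one of the libraries. Low counts were mostly even (75.8% in WT, 74.1% in KO, among genes with 1 to 20 reads), so Clopper-Pearson and exact Poisson intervals were computed on read pairs. The 8 genes and the gene lists were chosen with earlier results of these data known. Named list genes are direct partners and relatives of the 8 genes, the 3 highest and 3 lowest ratios past 1.5 times with at least 10 RPM, and the most abundant cell markers. Other list genes in the text were chosen after their values were seen. Gene positions are from GENCODE vM1 (NCBIM37) and promoters from RefSeq. The alternatives were 2 other pseudocounts, RPKM, 5 other scalings (edgeR's TMM, DESeq2 size factors and others), 3 other minimums and a threshold of 2 times. Intervals and calls were tested on simulated read pairs with counting error only, which cannot show how they perform with variation between animals or PCR copies. Python 3.11.15 with scipy 1.17.1 and pandas 2.3.3, and R 4.3.3 with edgeR 4.0.16 and DESeq2 1.42.0 were used.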

Additional observations from a re-analysis of the deposited data

How the results depend on the processing

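Each genotype had 1 library, so no library could be left out. No paired analysis was possible because the labels carry no replicate numbers and each group has 1 sample. The 3 genes called higher and the 1 called lower out of 8 were the same counts under every other pseudocount, RPKM, TMM, DESeq2 size factors, the scaling without the 20 genes with the highest RPM and the other minimums. Scaling to the reads on listed genes gave 4 higher and 1 lower. Relative to the luminal keratins, 0 of the 8 genes were called higher and 6 lower, *Ehf* turned to -0.39 and *Elf3* to -0.95, and of 90 other genes of the related lists 2 were higher and 78 lower, against 30 and 17 with the deposited RPM. That scale divides by keratin sums that differ 3.72 times between the libraries, and 0.91% of all 14026 genes were called higher on it and 94.1% lower. At a threshold of 2 times, 2 of the 8 genes were higher and 0 lower, beside 9.64% and 13.8% of all genes. With a minimum of 10 RPM, 24 of the 65 list genes left were higher and 6 lower. At that minimum 20.7% of all genes were higher and 20.4% lower. Under the 7 alternatives other than keratins that rescale values or change the pseudocount, log2 ratios ran from 2.21 to 2.54 for *Aldh1a3*, 1.48 to 1.69 for *Ehf*, 0.91 to 1.13 for *Elf3*, 0.48 to 0.69 for *Kit* and -0.88 to -0.67 for *Itgb3*. Those of *Sox9* (-0.25 to -0.045), *Sox10* (-0.30 to -0.089) and *Grhl2* (0.095 to 0.30) kept their sign. Scaled to listed genes, *Kit*, *Itgb3*, *Ehf*, *Sox9* and *Sox10* moved by more than their counting error.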

Other observations

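Of the list gathered here as other luminal progenitor markers, 2 genes were close to absent in WT, and both were singled out after their values were seen. *Cyp24a1*, which encodes the enzyme that inactivates vitamin D, had 2 reads in WT (0.058 RPM) and 235 reads in KO (6.71 RPM). *Alox12e*, an epidermal-type lipoxygenase gene, had 2 reads in WT and 234 reads in KO (6.68 RPM). The WT values are under the limit of 3 reads, and the 95% interval of the log2 ratio ran from 4.34 to 12.2 for each gene, for counting error only. With the added 0.1 RPM the log2 ratios were 5.43 and 5.42.

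Among the hormone-sensing luminal markers, which are normally expressed by another set of cells than the progenitor markers, *Prlr* (prolactin receptor) had 30.2 RPM in WT and 102.6 RPM in KO, *Esr1* (estrogen receptor) 4.46 and 10.9 RPM and *Pgr* (progesterone receptor) 0.93 and 5.60 RPM. *Ly6a* (Sca-1) had 107.8 and 106.4 RPM and stayed within 1.5 times.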
